A study of Mus musculus with 16 samples.

Results

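The Dlk1-Meg3 locus is an imprinted cluster on distal mouse chromosome 12, and 4 of its genes were chosen by name for description: Dlk1, Meg3, Rian and Mirg. Of these 4, Dlk1 and Meg3 were matched to an identifier among the 50600 genes of the count tables. Rian and Mirg were not matched and were not analysed here. Reads were split by parental allele in 16 RNA-seq libraries of 12 clones, all from F1 hybrid mouse embryonic stem cells with a 129 (maternal) and a Cast (paternal) genome. The stem cells were differentiated into neural progenitor cells (NPCs), from which clones were grown after limited dilution, and some clones were taken on to astrocytes in medium with FGF2 and BMP4.

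The groups were 5 astrocyte clones with 1 poly(A)-enriched library each (Astro_129, Astro_C2 and Astro_G4, female, and Astro_mC3 and Astro_mE6, male), 3 NPC clones with 1 poly(A)-enriched library each (NPC_F5, female, and NPC_mG2 and NPC_mG6, male), and 4 male NPC clones with 2 ribosomal RNA-depleted libraries each (Ch3, Ch5, Ch7 and Ch8). The NPC clones were kept in EGF and FGF2, so cell type and medium cannot be told apart. Each clone descends from 1 cell, so a clone is 1 sample of its kind, and the 2 libraries of a Ch clone measure the spread within that clone. The study's methods speak of biological replicates in general, without saying whether those 2 libraries came from separate cultures.

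In the mouse, Dlk1, Rtl1 and Dio3 are known as the protein-coding genes of this cluster expressed from the paternal chromosome, and Meg3, Rian and Mirg as non-coding RNAs expressed from the maternal chromosome. The choice of allele is set by a methylation mark between Dlk1 and Meg3 that is laid down on the paternal copy. Dlk1 encodes a transmembrane protein related to the Notch ligands that is known from progenitor cells, and in neural stem cells and astrocytes its imprint can be relaxed. Meg3 is a long non-coding RNA, and Rian and Mirg, together with it, host small nucleolar RNAs and microRNAs.

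On GRCm38.p6, RefSeq places Dlk1 on chromosome 12 from 109452485 to 109463336 and Meg3 from 109540996 to 109571729. The start regions of both genes are shown because the methylation that marks imprinted genes is carried by CpG dinucleotides, which are in capitals. Methylation itself was not measured. The windows run from 250 bases before to 50 bases after a transcript start on the plus strand. The start used for Dlk1 lies downstream of the start of its RefSeq gene span, and of 2 start windows for Meg3 the one at the beginning of the gene is printed. They are chr12:109452573-109452872 for Dlk1 and chr12:109540746-109541045 for Meg3.
Dlk1: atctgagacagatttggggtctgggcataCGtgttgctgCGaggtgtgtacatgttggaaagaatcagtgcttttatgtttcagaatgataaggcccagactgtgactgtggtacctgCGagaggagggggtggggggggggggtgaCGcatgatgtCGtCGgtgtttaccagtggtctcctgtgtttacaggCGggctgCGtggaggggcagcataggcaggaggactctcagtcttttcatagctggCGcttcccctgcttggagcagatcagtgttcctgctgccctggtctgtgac
Meg3: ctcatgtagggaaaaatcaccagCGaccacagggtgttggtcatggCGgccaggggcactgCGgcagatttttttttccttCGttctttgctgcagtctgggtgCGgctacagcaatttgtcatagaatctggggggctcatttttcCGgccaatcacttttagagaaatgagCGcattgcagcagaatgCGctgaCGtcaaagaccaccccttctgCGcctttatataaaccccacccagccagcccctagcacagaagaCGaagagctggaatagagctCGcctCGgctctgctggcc
The Dlk1 window held 9 CpGs, a number reached or passed by 45.8% of the 32851 RefSeq promoter windows of this length. The printed Meg3 window held 13, reached or passed by 37.9% of them, and the second Meg3 window, chr12:109545148-109545447, held 1, reached or passed by 94.6%. The letters TATAAA, searched on both strands, were present in the printed Meg3 window and in neither of the other windows, and 13.6% of all windows held them. These counts describe letters only.

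The libraries held 78257443 to 93963293 counted reads in astrocytes, 69925081 to 105892734 in poly(A) NPC clones and 20871111 to 30920672 in the rRNA-depleted libraries, of which 4193927 to 5971768 in the last group carried an allele. The 129 share of chromosome 12 reads in Ch5, Ch7 and Ch8 was 0.202 to 0.237%, the level of 129 reads where no 129 chromosome was present. Of the markers, Nes (a progenitor filament) spanned 58.5 to 116 CPM in astrocytes and 1051 to 1585 CPM in poly(A) NPC clones. Gfap (an astrocyte filament) spanned 62.5 to 1856 CPM and 0.660 to 1.999 CPM in the same groups. Other markers overlapped or went the other way: Pax6 (a progenitor factor) spanned 31.3 to 68.3 CPM in astrocytes and 26.2 to 35.2 CPM in poly(A) NPC clones, and Aldh1l1 (an astrocyte enzyme) 2.38 to 11.04 CPM and 13.1 to 22.0 CPM. Astro_C2 had the lowest sum of the 5 astrocyte markers, 784 CPM against 791 to 1255 CPM in the poly(A) NPC clones. At least 553 CPM of that sum was Slc1a3, which was at 709 to 1227 CPM in poly(A) NPC clones. Aqp4, like Gfap, was higher in every astrocyte clone (15.3 to 122 CPM against 0.499 to 3.46 CPM), and S100b overlapped. Astro_C2 also had the highest sum of the 3 fibroblast markers, 206 CPM, nearly all of it Col1a1 at 202 CPM. Col3a1 and Pdgfrb were at most 1.87 and 2.05 CPM in astrocytes. The oligodendrocyte marker Sox10 was at 0 in all 5 astrocyte clones. Levels below are counts per library total after TMM scaling, in the usual unit CPM, averaged over the 2 libraries of a Ch clone. They do not correct for transcript length, so they are compared between clones and not between genes.

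Dlk1 was detected in 11 of the 12 clones. Among astrocytes it had 0 reads in Astro_129, 33 in Astro_C2, 42 in Astro_G4, 49 in Astro_mE6 and 428 in Astro_mC3. The corresponding levels were 0, 0.417, 0.517, 0.522 and 5.21 CPM, so that 1 clone stood far above the other 4. In Astro_129 a count of 0 allows a level of up to 3 reads in that library. In the poly(A) NPC clones Dlk1 was at 0.669 CPM in NPC_F5, 1.57 CPM in NPC_mG6 and 2.93 CPM in NPC_mG2. In the rRNA-depleted clones it was at 2.89 CPM in Ch3, 1.64 CPM in Ch5, 1.35 CPM in Ch7 and 1.30 CPM in Ch8. Both Ch3 libraries (2.68 and 3.10 CPM) were above all 6 libraries of the other Ch clones, which ranged from 1.10 to 2.07 CPM.

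Meg3 followed a different pattern, with reads in the NPC clones that held a maternal chromosome 12 and few or none elsewhere. In the poly(A) NPC clones it had 26 reads (0.238 CPM) in NPC_F5, 50 reads (0.637 CPM) in NPC_mG2 and 131 reads (1.52 CPM) in NPC_mG6. The Ch3 libraries held 33 and 54 Meg3 reads, 1.74 and 1.97 CPM. All 6 libraries of Ch5, Ch7 and Ch8 held 0 Meg3 reads. The 5 astrocyte clones held 0 to 4 reads each and 11 in all.

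**Figure D1:**
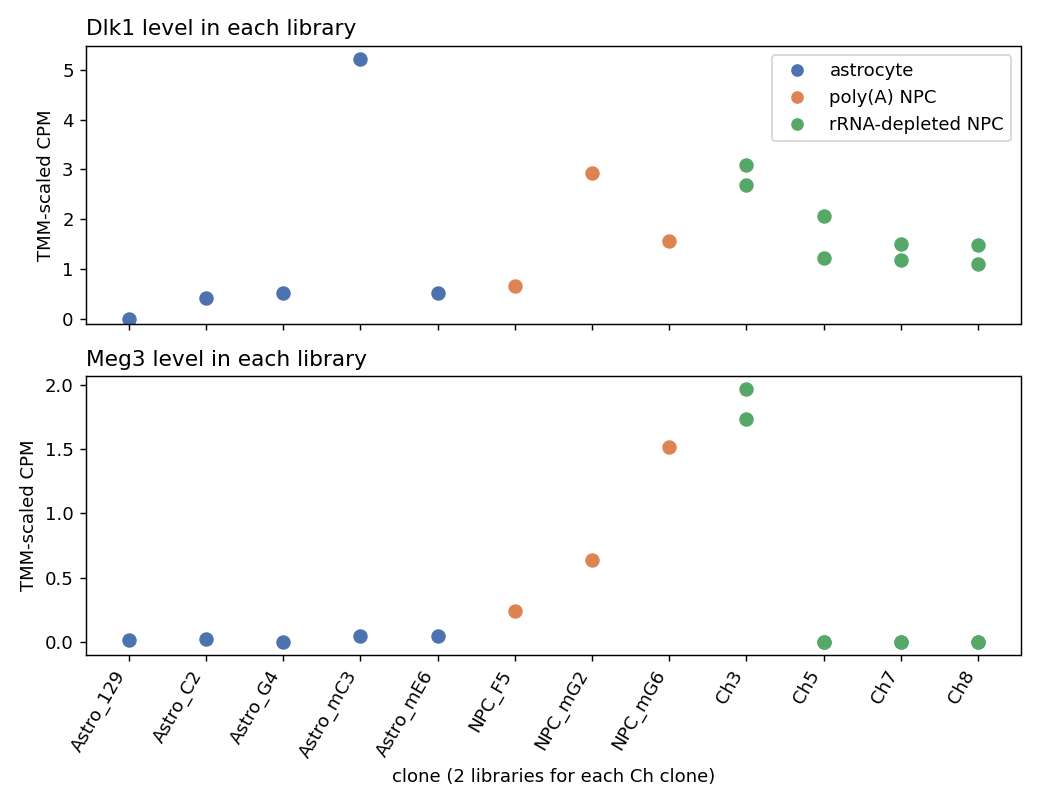
TMM-scaled CPM of Dlk1 (top) and Meg3 (bottom) in each of the 16 libraries, with 1 point per library and colours for astrocytes, poly(A) NPC clones and rRNA-depleted NPC clones. Dlk1 stands at 5.21 CPM in Astro_mC3, and Meg3 is at 0 in the 6 libraries of Ch5, Ch7 and Ch8 against 1.74 and 1.97 CPM in Ch3.

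The other genes of the domain were close to undetected, apart from Begain. Begain, which lies at the edge of the domain and encodes a postsynaptic scaffold-associated protein, had 27 to 123 reads in astrocytes, 25 to 39 in the Ch clones and 235 to 1164 in the poly(A) NPC clones, with the highest count in NPC_F5. Rtl1, a retrotransposon-derived gene, had 23 reads in Astro_129, 2 in Astro_mC3, 1 in NPC_F5 and 0 in the other 9 clones. Dio3, a thyroid hormone deiodinase, had 1 read in all. Of 61 microRNA genes listed between Begain and Dio3, 47 were matched, and 2 of them (Mir666 and Mir667) held 1 read each, both in Ch3. These library types were not made for small RNAs.

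The allelic expression ratio, the percentage of allele-specific reads that were Cast, was given a class only from 20 such reads on. A ratio under 15% or over 85% was called monoallelic, a ratio from 35 to 65% biallelic and any other biased, and each is given with its 95% Wilson interval, which covers counting error only. By these limits Dlk1 had a class in 7 clones, 4 of them biallelic and 2 monoallelic, Ch3 for 129 and Ch7 for Cast. Ch7 held no 129 chromosome 12, so its class could only be Cast and says nothing about allele choice. Dlk1 was biallelic in Astro_mC3, with 84 Cast and 102 129 reads (45.2%, 38.2 to 52.3%). It was also biallelic in Astro_mE6, with 9 Cast and 15 129 reads (37.5%, 21.2 to 57.3%). Among the poly(A) NPC clones the ratio was 35.6% (27.0 to 45.4%) in NPC_mG2, from 101 reads, and 45.5% (33.0 to 58.5%) in NPC_mG6, from 55 reads. Both alleles of Dlk1 were thus read in every clone of the poly(A) series that had reads at all. Pooled over NPC_mG2 and NPC_mG6, 39.1% of 156 Dlk1 reads were Cast (31.8 to 46.9%).

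In Ch3, by contrast, Dlk1 reads were nearly all maternal, with 2 Cast and 40 129 reads (4.76%, 1.32 to 15.8%). The first Ch3 library gave 2 Cast and 14 129 reads and the second 0 Cast and 26 129 reads, a difference within counting error (Fisher's exact test, two-sided, p = 0.139, adjusted p = 0.686 over the 48480 tests of all genes and Ch clones). The listed paternal allele of Dlk1 was therefore the minor one in Ch3. The interval in Ch3 does not overlap those in NPC_mG2 and NPC_mG6. Ch3 libraries were rRNA-depleted and those of NPC_mG2 and NPC_mG6 poly(A)-enriched, so library type and clone cannot be told apart in this difference. In Ch5, Ch7 and Ch8, whose chromosome 12 was Cast throughout, all Dlk1 reads were Cast, 18, 22 and 17 of them, with lower bounds of 82.4, 85.1 and 81.6%.

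Meg3 reads were maternal in the NPC clones with an even chromosome 12. Ch3 had 2 Cast and 20 129 reads (9.09%, 2.53 to 27.8%), NPC_mG2 had 0 and 13 (0%, up to 22.8%), and NPC_mG6 had 1 and 35 (2.78%, 0.492 to 14.2%). Summed over the 3 clones, 3 of 71 Meg3 reads were Cast, 4.23% (1.45 to 11.7%). In Ch3 both Dlk1 and Meg3 were thus read mainly from the 129 chromosome, whereas in NPC_mG2 and NPC_mG6 Meg3 was read from the 129 chromosome and Dlk1 from both. Library type also differed between Ch3 and these clones. NPC_F5 was the exception for Meg3, with 9 Cast and 3 129 reads (75%, 46.8 to 91.1%), an interval that does not overlap those of the other 3 NPC clones. In astrocytes only 3 Meg3 reads carried an allele, all 129, and no ratio can be given.

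**Figure D2:**
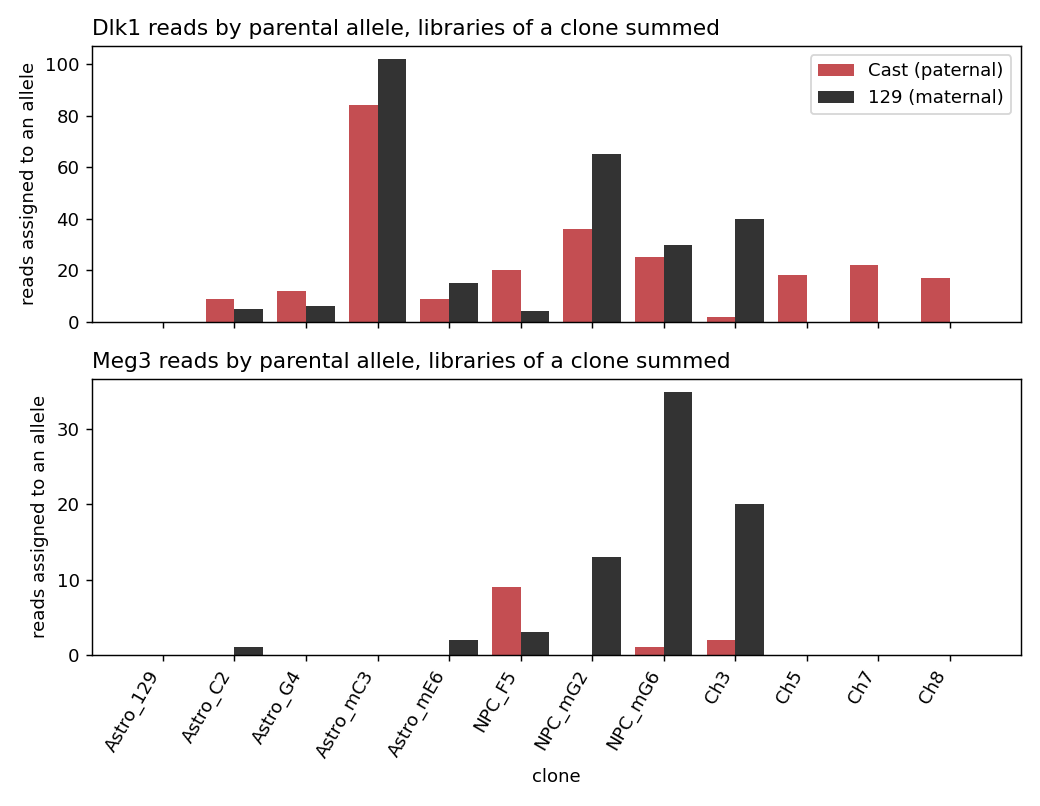
Reads assigned to the Cast and the 129 allele of Dlk1 (top) and Meg3 (bottom) in each of the 12 clones, with the 2 libraries of a Ch clone summed. Dlk1 shows 2 Cast and 40 129 reads in Ch3 against 84 and 102 in Astro_mC3, and Meg3 shows 9 Cast and 3 129 reads in NPC_F5 against 1 and 35 in NPC_mG6.

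The 22 genes chosen to flank the domain, from Eml1 to Ckb, gave the allelic background at the same place. In Ch3, 21 of them had 20 allele-specific reads, all 21 were biallelic, and their ratios ran from 39.9 to 58.6% with a median of 50%. Dlk1 and Meg3 in Ch3 lay below the whole of this range. In NPC_mG2 the flanking ratios ran from 35.8 to 57.7%, and Dlk1 at 35.6% lay just under the lowest of them. In NPC_mG6 they ran from 34.9 to 55.4% and included Dlk1. In Ch5, Ch7 and Ch8 the flanking medians were 99.98, 100 and 99.92% Cast.

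**Figure D3:**
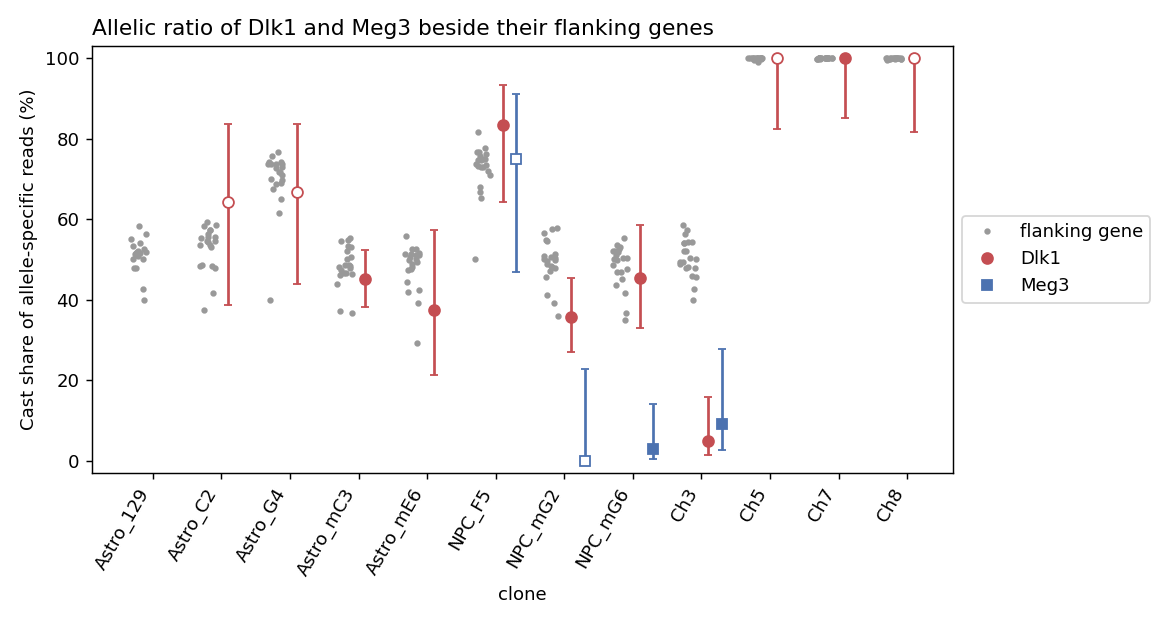
Cast share of allele-specific reads (%) in each clone for the flanking genes (grey points, at least 20 reads each), Dlk1 (circles) and Meg3 (squares), with 95% Wilson intervals. Open symbols rest on 10 to 19 reads, and clones under 10 reads have no symbol. Dlk1 and Meg3 lie below all flanking genes in Ch3, at 4.76 and 9.09% against 39.9 to 58.6%.

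The comparison of Ch3 with Ch5, Ch7 and Ch8 asks what the locus does when chromosome 12 is read from the paternal genome only. The number of copies was not measured. In 10 Mb windows with the domain left out, the median allelic ratio was 48.2 to 52.3% in Ch3 over the first 7 windows and 99.9 to 100% in the 3 other clones. Read dosage, the median log2 difference of window genes from the other clones of the same kind, stayed between -0.15 and 0.13 in all 4 Ch clones. The Ch3 values, which alone set the mixed chromosome against the all-Cast clones, ran from -0.12 to 0.05. The all-Cast chromosome thus gave about as many reads as the mixed one.

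Meg3 was the member that separated these clones. It had 87 reads in Ch3 and 0 in 163086337 reads of Ch5, Ch7 and Ch8 together. With 3 reads over the 6 libraries as the limit that a count of 0 allows, the Ch3 level was 96.1-fold above that limit. The counting error of the 87 reads and the spread between clones are not part of this value. Meg3 passed the filter on low counts only through the Ch3 libraries, so it had to differ and no test is given.

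Dlk1 was also higher in Ch3, by 1.04 ± 0.25 on the log2 scale (edgeR, adjusted p = 0.0159, higher in 2 of 2 libraries than in each of 6). Of all 17095 genes tested, 7.21% were called higher in Ch3 and 6.9% lower. Taken clone by clone, where 6.36, 12.9 and 13.6% of all genes were called in either direction, the Dlk1 difference was 0.85 against Ch5 (edgeR, adjusted p = 0.153), 1.10 against Ch7 (adjusted p = 0.0421) and 1.16 against Ch8 (adjusted p = 0.0336). The Dlk1 call was lost without the first Ch3 library (edgeR, adjusted p = 0.0633), without the second (0.202), without the second Ch7 library (0.0506), without clone Ch7 (0.0502), and with 1 summed library per clone (0.166). Ch3 is 1 clone, so chromosome 12 and any other difference of that clone cannot be told apart.

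Split by allele, Ch3 had 40 129 reads of Dlk1 and the other clones 0. Among these clones Ch3 alone held a 129 chromosome 12, and Dlk1 passed the filter on 129 reads through the Ch3 libraries only, so its 129 reads had to be higher there and no test is given. The same holds for the other chromosome 12 genes, of which 351 of 353 were higher in Ch3 on 129 reads. Of all 11577 genes, these included, 14.1% were called. On Cast reads the Dlk1 difference was -2.92 on the log2 scale, with 2 reads in Ch3 and 57 in the others. Dlk1 passed the filter on Cast reads only through libraries of the all-Cast clones, so no test is given. The 403 other chromosome 12 genes tested on Cast reads had a median of -1.03, and 341 of them were lower in Ch3. Of all 11115 genes tested on Cast reads, 13% were called. Meg3 had too few allele-specific reads for these fits.

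Begain did not pass the test in the same comparison, at 0.15 ± 0.36 on the log2 scale (edgeR, adjusted p = 0.831). Of the 22 flanking genes 21 were tested, 3 were higher in Ch3 (Rcor1, Cdc42bpb and Ckb, by 0.27 to 0.37 on the log2 scale) and 1 was lower (Eml1, which fell by 0.37), with a median of 0.03 beside 0.00 over all genes. Over all genes 7.21% were called higher in Ch3 and 6.9% lower. The flanking differences ran from -0.58 to 0.37, none as large as that of Dlk1.

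Among 27 genes of the Notch pathway, in which Dlk1 is known to act as an atypical ligand, 25 were tested between Ch3 and the other Ch clones, 2 were higher and 3 were lower, with a median of -0.09. These counts stand beside 7.21% higher and 6.9% lower over all genes, so the share called was near the background and the genes that follow are described singly. The ligand Jag1 was higher by 0.55 ± 0.08 (edgeR, adjusted p = 0.000608), and the other gene called higher was Adam10, a protease that cleaves Notch. The ligand Dll3 was lower (-1.43 ± 0.18, adjusted p = 0.000368), as were the receptor Notch1 (-0.72 ± 0.07, adjusted p = 3.79e-05) and the target Hes5 (-1.06 ± 0.26, adjusted p = 0.0486). Of 14 regulators of imprints and DNA methylation, all tested, 0 were higher and 2 were lower in Ch3 by edgeR. These counts stand beside the same 7.21% and 6.9% over all genes. The 2 were Zfp57, a zinc finger protein that maintains imprints, at -0.81 ± 0.13 (edgeR, adjusted p = 0.00134), and its partner Trim28 at -0.30 ± 0.08 (adjusted p = 0.0356). Clone by clone, 0 of the 14 were called against Ch5, and 3 were lower against Ch7 and 3 against Ch8. Over all genes 6.36, 12.9 and 13.6% were called in these contrasts. Trim28 was at 237 CPM in Ch3, 239 in Ch5, 310 in Ch7 and 340 in Ch8. Zfp57 was at 6.16, 9.19, 12.2 and 11.2 CPM in the same order.

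The astrocyte clones were then compared with the 3 poly(A) NPC clones, which share the library type but are not the same clones. Meg3 was lower in astrocytes, with 11 reads in the 5 clones against 207 in the 3 NPC clones, and the groups did not overlap: astrocytes had at most 0.0487 CPM and NPC clones at least 0.238 CPM. Meg3 passed the filter on low counts only through the NPC libraries, so it had to differ. Neither a test nor a fold over a group near 0 is given. Of all 18192 genes tested, 12.5% were called lower in astrocytes and 12.8% higher. In bulk samples fewer cells with Meg3 RNA and less Meg3 RNA per cell cannot be told apart.

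Dlk1 did not pass the test between astrocytes and NPC clones (log2 difference -0.38 ± 1.41, edgeR, adjusted p = 0.871). Its groups overlapped, at 1.33 ± 2.18 CPM (SD, n = 5) against 1.72 ± 1.14 CPM (SD, n = 3), and without NPC_mG2 the difference changed sign to 0.24. Begain was lower in astrocytes, at -2.73 ± 0.63 on the log2 scale (edgeR, adjusted p = 0.0168). Among the NPC clones Begain was at 10.7 CPM in NPC_F5, whose distal chromosome 12 shift is given below, against 3.90 CPM in NPC_mG2 and 2.73 CPM in NPC_mG6. The part of NPC_F5 in the difference was not tested. Of 27 Notch pathway genes 26 were tested, 5 were higher in astrocytes and 4 lower, with a median of 0.16 beside 0.08 over all genes. Over all genes 12.8% were called higher and 12.5% lower, so the genes that follow are described singly. Dlk2, the close relative of Dlk1, was higher by 4.997 ± 0.86 (edgeR, adjusted p = 0.00530), and the target Nrarp was lower (-5.79 ± 0.87, adjusted p = 0.00316). Of the 14 imprint regulators 1 was higher and 4 were lower, beside the same 12.8% and 12.5% over all genes. The higher one was Aff3 (3.75 ± 0.74, edgeR, adjusted p = 0.00910). Among the lower ones were the maintenance methyltransferase Dnmt1 (-1.40 ± 0.28, edgeR, adjusted p = 0.00990) and its cofactor Uhrf1 (-4.82 ± 0.26, adjusted p = 2.43e-05).

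Astro_G4 and NPC_F5 carried a shift of distal chromosome 12 that includes the locus. Over the first 7 windows their median ratios were 45.3 to 51.7% and 47.3 to 52.4% Cast. From 80 Mb on the 4 windows were at 71.2 to 73.1% in Astro_G4 and 73.0 to 75.6% in NPC_F5, while no other clone with both alleles left 47.7 to 55.7%. Dosage in the same windows was 0.58 to 0.76 log2 above the other astrocytes in Astro_G4 and 0.90 to 1.14 log2 above the other poly(A) NPC clones in NPC_F5. In the window of the locus, 100 to 110 Mb, the median ratio was 71.6% over 49 genes in Astro_G4 and 73.5% over 48 genes in NPC_F5.

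**Figure D4:**
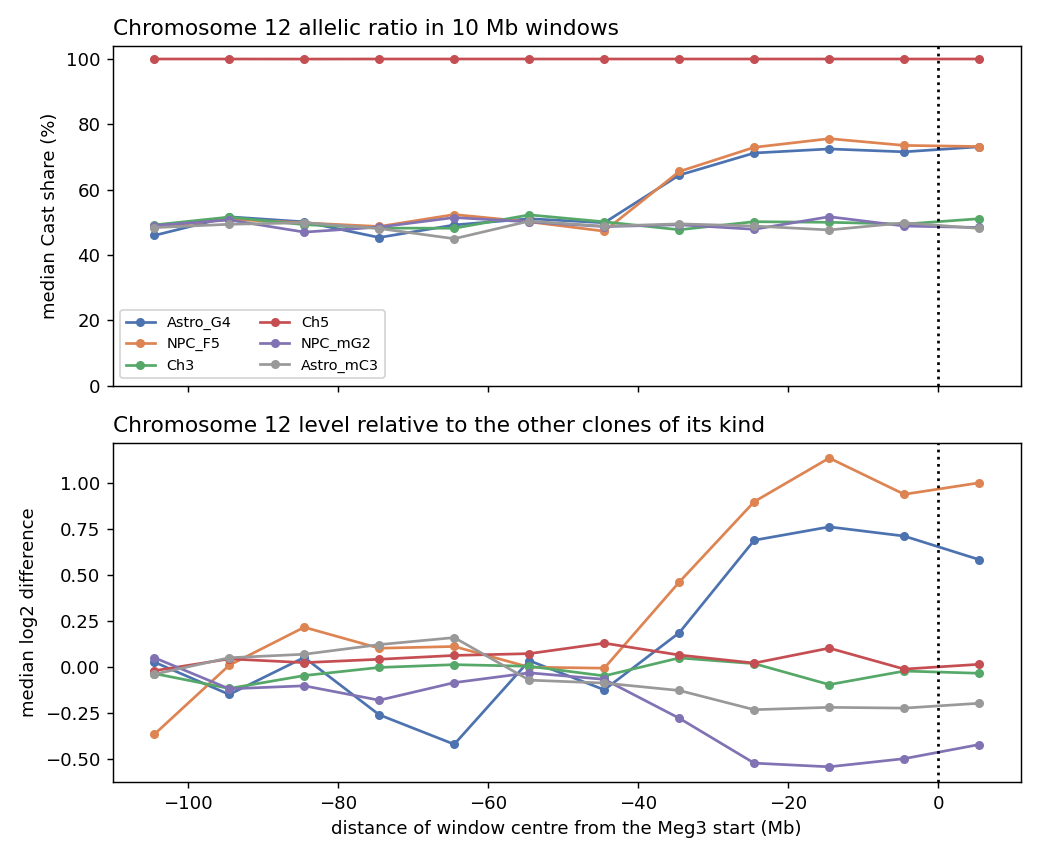
Median Cast share (%, top) and median log2 level relative to the other clones of the same kind (bottom) of chromosome 12 genes in 10 Mb windows with the domain left out, against the distance of the window centre from the Meg3 start in Mb, for 6 clones. Astro_G4 and NPC_F5 rise to over 70% Cast in the last 4 windows, Ch3 stays near 50% and Ch5 at 100%.

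The levels of the members in these clones are given beside the dosage of the segment. Dlk1 in NPC_F5, at 0.669 CPM, was the lowest of the 3 poly(A) NPC clones, and so was Meg3 at 0.238 CPM, while the 22 flanking genes had a median of 0.84 log2 above the other NPC clones. In Astro_G4 Dlk1 was at 0.517 CPM, between the other astrocytes, and Meg3 had 0 reads, while the flanking genes had a median of 0.65. Begain in NPC_F5, at 10.7 CPM, was above NPC_mG2 (3.90 CPM) and NPC_mG6 (2.73 CPM). With 1 clone on one side, edgeR called neither member in either contrast (adjusted p from 0.784 to 0.920). It called 0 of 20295 genes in Astro_G4, where 1280 had an unadjusted p under 0.05 and DESeq2 called 302. In simulated data this contrast recovered 0 of 200 genes changed by 2 on the log2 scale and 132 of 200 changed by 6, so differences of the size of the dosage could not have been called.

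The allelic ratios in these clones can be set beside the segment. Dlk1 in NPC_F5 was 83.3% Cast (64.1 to 93.3%, 20 of 24 reads), with the segment at 73.5% inside the interval. Its Meg3 ratio of 75% also held 73.5% inside its interval, so at this depth neither gene could be separated from the segment in NPC_F5. In Astro_G4 Dlk1 had 12 Cast and 6 129 reads (66.7%, 43.7 to 83.7%), again around the value of the segment, from under 20 reads. Begain was 70.8% Cast in NPC_F5 (65.1 to 76.0%, 264 reads).

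Imprinted genes elsewhere in the genome were read in the same clones. Of 75 ratios of 7 genes listed as paternally expressed, 30 were over 85% Cast and 2 were under 15%. Of 15 ratios of 3 genes listed as maternally expressed, 8 were under 15% Cast and 1 was over 85%. Over the other autosomal genes with a position, chromosome 12 left out, 2.14% of 130535 ratios were over 85% and 2.62% under 15%. Peg3 was monoallelic for Cast in 7 of 12 clones, with ratios from 47.3 to 99.97%, while Zrsr1, also listed as paternally expressed, was monoallelic in 0 of 12 with a median of 49.9%, and Nnat in 0 of 4. Among the maternally expressed genes, Igf2r was monoallelic for 129 in 7 of 12, with ratios from 4.81 to 83.1%.

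The genes whose level was most like that of a member over the 12 clones were found by Pearson's r of log2(CPM + 1) after the mean of each of the 3 kinds of clone was subtracted, among 11399 genes with a mean of at least 5 CPM. For Dlk1 these were Btbd3 (r = 0.921), Enpp2, Fam19a2, Nkain3 and Pak3 (r = 0.900). For Meg3 they were 1 gene without a symbol (r = 0.887) and the small nucleolar RNA genes Snord35a, Snord110, Snord65 and Snora30 (r = 0.875). These are descriptions over 12 points that share library type within each kind, and they were not recomputed without Astro_mC3 or Ch3, the clones highest in Dlk1 and Meg3.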

How the data were processed

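RNA-seq counts of 16 libraries were used. The authors masked strain SNPs, aligned reads to GRCm38 (TopHat2 2.1.0, Bowtie2), assigned them to alleles with SNPsplit and counted them per gene, by strand, with featureCounts 1.5.1; the deposited counts (all, Cast and 129 reads) are raw. The authors also deposited the Cast fraction from 10 reads on; it equalled Cast over allele-specific reads in all 210803 values tested and was not used further.

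Of 50600 identifiers, 32722 had a symbol in the reference tables. Positions and promoter sequences are from RefSeq (GRCm38.p6). The members and lists were chosen with earlier results of these data known. Named genes were the members, the domain, flanking, Notch, imprint regulator and imprinted lists (values for at most 4 genes of each list beyond the locus) and the 5 genes most like each member.

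Comparisons used edgeR 4.0.16 (quasi-likelihood, TMM, expression filter, Benjamini-Hochberg adjusted p under 0.05) in R 4.3.3, with the 4 Ch clones as groups for Ch3, all 8 poly(A) libraries for the other contrasts, and DESeq2 1.42.0 as an alternative. P-values measure the spread between these libraries, and the sources used here do not say whether those of a Ch clone came from separate cultures. On simulated data 180 of 200 genes changed by 2 (log2) were recovered for Ch3 and 71 of 200 for astrocytes. Fold changes are ± SE. Dosage used genes with 50 reads and a pseudocount of 0.5 CPM. Libraries of a Ch clone differed by more than counting error genome-wide and were not duplicates.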

Additional observations from a re-analysis of the deposited data

Results flagged for a closer look

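Among the 5 astrocyte clones, 2 of 4 gene levels tested (Dlk1, Meg3, Begain and Rtl1) had 1 clone apart from the rest by Dixon's criterion (gap over range above 0.71). Chance raises this flag in about 1 of 20 groups of normally distributed values. That rate need not hold here, as Rtl1 had 0 reads in Astro_C2, Astro_G4 and Astro_mE6 and Dlk1 0 in Astro_129. Dlk1 stood at 5.21 CPM in Astro_mC3, where the other clones had at most 0.522 CPM; the summed astrocyte markers of that clone, at 2915 CPM, were the highest of the 5 and its summed neuronal markers, at 4.48 CPM, the lowest, and their part in the result was not tested. Rtl1 stood at 0.231 CPM in Astro_129, from 23 reads, and that clone also had the highest summed neuronal markers, 35.7 CPM. That sum rests mainly on Tubb3 and Snap25, which reached 15.4 and 18.6 CPM among the astrocyte clones. Dcx was at most 6.72 CPM and Rbfox3 at most 0.664 CPM in any of them, so the sum does not speak for each marker. The part of these markers was not tested.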

How the results depend on the processing

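For Ch3 on all reads, leaving out 1 library gave 941 to 2964 called genes against 2412, and log2 differences of 0.91 to 1.17 for Dlk1; 1 summed library per clone gave 205 genes and 1.037 for Dlk1, and leaving out clone Ch7 gave 1.005, the last 2 without a call. On Cast reads leaving out 1 library gave 754 to 1647 genes against 1443, DESeq2 957 and summed libraries 404; Dlk1 ranged from -6.28 to -1.74 without 1 library and was called with no TMM (-2.96), no filter (-2.92), without clone Ch5 (-2.96) without clone Ch8 (-2.96), and without the first library of Ch3, Ch5 or Ch8 (adjusted p by edgeR of 0.0469, 0.0252 and 0.0344). On 129 reads leaving out 1 library gave 965 to 1857 genes against 1631, DESeq2 1063 and summed libraries 596, and without the second Ch3 library Dlk1 did not pass the filter. Astrocytes against NPC clones gave 4603 genes, 2243 to 4784 without 1 clone and 2002 without both Astro_G4 and NPC_F5; Dlk1 ranged from -2.24 to 0.24, the last, without NPC_mG2, being the 1 reversal. DESeq2 called 302 genes in Astro_G4 and 227 in NPC_F5, where edgeR called 0 and 1. The causes were not tested.

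The shared numbers of the Ch libraries gave no common direction: over 6 pairs of clones the deviations of same-numbered libraries correlated at -0.36 (Ch3 and Ch7) to 0.47 (Ch5 and Ch8). Whether some of these libraries shared a batch was not tested. With a replicate block 2874 genes were called on all reads, 1607 on Cast reads and 1803 on 129 reads. Dlk1 was then at 1.03, -2.97 and 7.42 on the log2 scale, the last fixed by the missing 129 chromosome.

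A minimum of 10 or 50 allele-specific reads gave Dlk1 a ratio in 11 or 3 clones against 7, and Meg3 in 4 or 0 against 2. The second Ch3 library alone gave a Dlk1 ratio of 0%. The window ratio of NPC_F5 was 73.4% with 20 Mb windows and 73.7% from 50 reads, against 73.5%. Depth limits the ratios of Meg3, which had at most 36 allele-specific reads in a clone.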
